A study of Mus musculus with 6 samples.

Results

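The transcripts examined encode 9 transcription factors that mark the layers of the cerebral cortex: Cux1, Cux2 and Rorb of the upper layers, and Tbr1, Bcl11b, Fezf2, Foxp2, Tle4 and Sox5 of the deep layers. They were chosen by gene name on the array, which gave 26 of its 56605 probes that are not controls, 11 for the upper-layer genes and 15 for the deep-layer genes. Of these probes, 23 entered the tests because 3 or more of the 6 arrays called them well above background, and these covered 8 of the 9 genes. Both Foxp2 probes and 1 of the 7 Cux1 probes stayed below that filter.

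The irradiated group was 3 primary cultures of cerebral cortex from C57/B6 mouse embryos at embryonic day 16, exposed daily to 3.1 THz radiation, 3 hours at a time, between days 5 and 9 in vitro. The control group was 3 cultures of the same origin that the labels call control, and all 6 were collected at day 12 in vitro, each for 1 Agilent array with 1 colour. Cultures of this kind hold several cell types, and the labels name no sort, so fewer cells of a type and less RNA per cell cannot be told apart. Nothing in the labels says whether cultures with different numbers came from separate dissections, and p-values measure only the spread between these samples. The question addressed here is whether irradiated cultures differed from controls in transcripts of upper-layer or deep-layer neurons.

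As background, cortical projection neurons are born from the inside outward, deep layers first, and their identity is set by transcription factors that repress one another. Tbr1 specifies neurons of layer 6 that project to the thalamus, Fezf2 and its downstream factor Bcl11b (also called Ctip2) specify neurons that project to the spinal cord, Sox5 controls the timing and position of deep-layer neurons, and Tle4, a co-repressor without a DNA-binding domain of its own, and Foxp2 mark corticothalamic neurons. Cux1 and Cux2 are homeodomain proteins of upper-layer neurons that shape their dendrites and synapses, and Rorb, a nuclear receptor, marks layer 4. Several of them also occur outside the cortex or outside these neurons, for example Bcl11b and Foxp2 in the striatum.

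The probes are 60 bases long, and a gene's probes can read different transcripts, so each is described on its own and named by the gene and a letter, a being the brightest over the 6 arrays. The first 30 bases of the probes on which the results turn are printed here, as the array files give them. They show that 1 of them, the brightest for Sox5, is a repeat of A and G, in which capitals mark each GGA triplet.
Cux1 a: tccatgatttgagttctgcttgcttcttta
Cux1 b: tagaccaactgctactgatctgtcagcgta
Cux2 a: gatctgcaaacagatccgtccactccacat
Rorb a: cggaagaaataatgtcacacaacgataaac
Tbr1 a: ccactgagaatcgttttgttttctgctcgt
Bcl11b a: acatgtgagtactgcggcaaggtcttcaag
Fezf2 a: tttgcagaaactttgacttaaagagacatg
Tle4 a: gttctaacgcattgtgttggccaccagtac
Sox5 a: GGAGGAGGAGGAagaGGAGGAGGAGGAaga
Sox5 b: gtttgcaaggaagaaatacgaaagctactt
Foxp2 b: gttgacaaatttttactgtgactatttatt

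On mouse build mm9, per the array files, Cux1 a covers chr5:136724181-136724240 and Cux1 b chr5:136744240-136744299, both on the minus strand. Cux2 a lies at chr5:122308503-122308562 and Rorb a at chr19:19050603-19050662, also on the minus strand. Tbr1 a lies at chr2:61652093-61652152 on the plus strand. Bcl11b a was placed at chr12:109153847-109153906, Fezf2 a at chr14:13175057-13175116 and Tle4 a at chr19:14522671-14522730, all on the minus strand. Sox5 a has a placement of only 27 bases, chr6:143776945-143776971, and Sox5 b lies at chr6:143777579-143777638, both on the minus strand. This puts Sox5 a downstream of Sox5 b. Their annotated starts in the same transcript, base 4530 for Sox5 a and base 6637 for Sox5 b, give the opposite order. Foxp2 b lies at chr6:15388094-15388153 on the plus strand. Which exon, coding or untranslated, each probe lies in was not looked up.

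Expression is given as the log2 level, the log2 of the background-subtracted signal minus the log2 of the array's 75th percentile, so that 0 is the signal of the 75th percentile. Levels were compared only within a probe, since probes bind with different strength. All 6 arrays came from 1 slide read in 1 scan, with irradiated 2 and 3 in one row of the slide and irradiated 1 and the 3 controls in the other. The 75th percentile itself ranged from 921 to 1291 in irradiated cultures and from 476 to 1048 in controls. On the first principal component over all kept probes, which held 55.4% of the variation, control 1 stood apart at -148, against 11.6 to 62.0 for the other 5 arrays. A difference of a layer probe that changed by over 1.5 times or crossed 0 without control 1 is therefore given without it as well. Markers of neurons were measured for 7 of 7 genes and those of cortical excitatory neurons for 7 of 7. None of either list passed the adjusted threshold between groups. Nor did any of the 40552 kept probes, so neuron content cannot be called alike from this. Median differences were -0.27 for the neuron list and -0.081 for the excitatory list, with 5 of 7 below 0 in each. With 1 probe per gene over the array, the median was -0.10. The log2 summed level of the neuron list was 7.512, 7.717 and 8.002 in irradiated cultures, against 8.056, 8.005 and 7.995 in controls. Its part in the layer genes' values was not tested.

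No layer gene differed between irradiated and control cultures beyond the spread between cultures. Of the 23 kept probes, 0 passed the adjusted threshold of 0.05 (limma, Benjamini-Hochberg), and 0 had an unadjusted p under 0.05. Over the whole array 0 of 40552 kept probes passed the adjusted threshold, or 0%, and 3544 had an unadjusted p under 0.05, or 8.74%. With the culture number as a block, 0 layer probes passed either threshold, beside 0% of all kept probes adjusted and 8.64% unadjusted. The smallest adjusted p of a layer probe was 0.539, equal to the smallest on the array. The 3 irradiated values overlapped with the 3 control values at all 23 probes, while the groups lay apart at 14.1% of all kept probes, 6.63% with irradiated higher and 7.44% with irradiated lower.

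**Figure D1:**
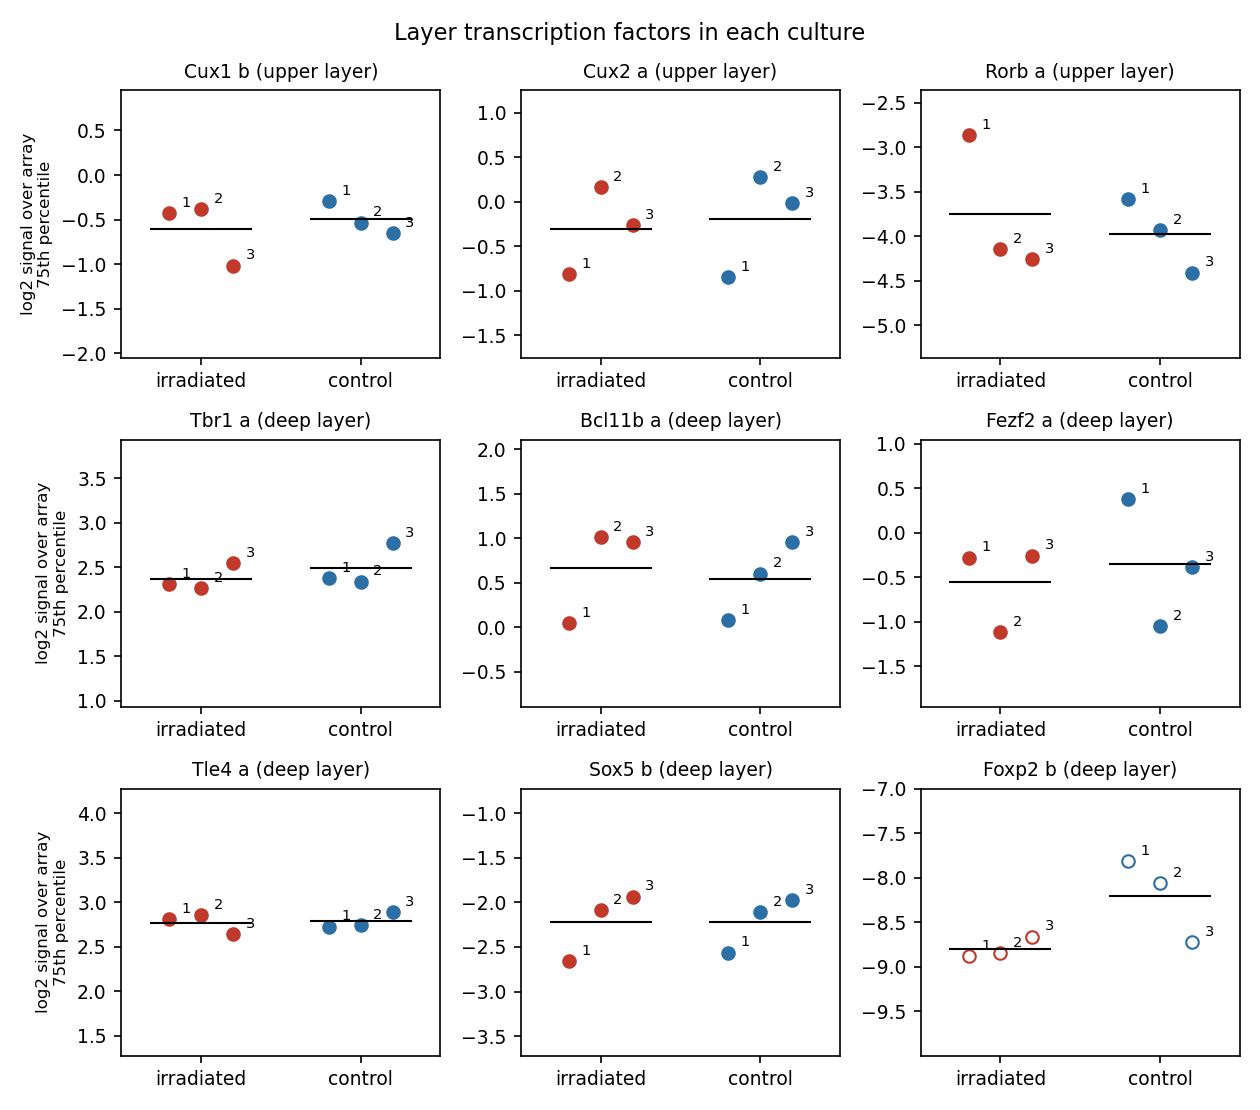
Log2 level over the array's 75th percentile for 1 probe of each of the 9 genes, with 3 irradiated cultures left and 3 control cultures right in each panel; numbers are the culture numbers, bars are group means, and open points were not well above background. Each panel spans 3 log2 units; irradiated and control values overlap for the 8 measured genes, and Foxp2 is below the background limit on all 6 arrays.

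Among the upper-layer genes, Cux2 was measured by 3 probes. Its probe a read -0.81, 0.17 and -0.26 in irradiated cultures 1 to 3, against -0.85, 0.27 and -0.02 in control cultures 1 to 3. The culture numbered 1 was the lowest of both groups, and the groups overlapped. The means were -0.30 ± 0.49 in irradiated and -0.20 ± 0.58 in control cultures (SD, n = 3 each). Irradiated minus control was -0.11, and its 95% interval, the kind given unless a block is named, ran from -0.98 to 0.76 (limma adjusted p 0.945). It was -0.43 without control 1. Probe b, which lies upstream of probe a in the gene, was at -0.87, -0.39 and -0.38 in irradiated cultures, against -0.53, -0.25 and -0.47 in controls. It differed by -0.13 (interval -0.66 to 0.41), and here too the number 1 was lowest in each group. The dim probe c, on another transcript of the gene, differed by 0.47 (interval -0.45 to 1.39), and by 0.10 with control 1 left out.

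Cux1 had 7 probes spread along its locus, and 5 of the 6 kept ones lay below 0 in the comparison. Probe a read 1.83, 1.86 and 1.96 in irradiated cultures, against 2.12, 2.07 and 1.93 in controls. Irradiated 3 lay above control 3 and the other irradiated values lay below all controls. The means were 1.88 ± 0.07 in irradiated and 2.04 ± 0.10 in control cultures (SD, n = 3 each), and the difference was -0.16 (interval -0.60 to 0.29, limma adjusted p 0.789). Probes a and e are annotated to transcript variant 2, and their positions lie downstream of those annotated to variant 3, namely b, c and g. The Cux1 gene is known to give, besides the homeodomain protein, shorter transcripts for CASP, a Golgi membrane protein without the DNA-binding regions, and the files do not say which protein a variant encodes.

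Probe b of Cux1, on variant 3, read -0.43, -0.39 and -1.02 in irradiated cultures, against -0.29, -0.53 and -0.65 in controls, and number 3 was the lowest of both groups. It differed by -0.12 (interval -0.70 to 0.47), and by -0.016 without control 1. Probe c on the same variant differed by -0.32 (interval -0.92 to 0.27), probe d on another transcript by -0.32 (interval -1.03 to 0.39; -0.051 without control 1), and probe e by -0.12 (interval -0.70 to 0.45). Probe f stood on the other side of 0, at 0.89 with an interval from -0.42 to 2.21. Its control 1 value was -6.90 and not well above background, while the other 5 arrays lay between -5.09 and -4.33, and without control 1 it differed by 0.20. Probe g stayed below the background limit throughout, so its values give no order.

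Rorb was read by 1 probe. Its log2 level was -2.86, -4.14 and -4.25 in irradiated cultures 1 to 3, against -3.58, -3.93 and -4.41 in control cultures 1 to 3. The cultures numbered 1 were the highest of each group, and irradiated 1 was the highest of all 6. The means were -3.75 ± 0.77 in irradiated and -3.97 ± 0.41 in control cultures (SD, n = 3 each). Irradiated minus control was 0.22 (interval -0.75 to 1.19, limma adjusted p 0.883). Without control 1 it was 0.42, and without irradiated 1 it was -0.22, so the direction rested on that culture.

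Among the deep-layer genes, Tbr1 was read by probe a, which starts at base 3898 of its transcript, at 2.31, 2.26 and 2.54 in irradiated cultures, against 2.38, 2.34 and 2.77 in controls. Number 3 was the highest of each group, and each irradiated value lay below the control of the same number. The means were 2.37 ± 0.15 in irradiated and 2.49 ± 0.24 in control cultures (SD, n = 3 each). Irradiated minus control was -0.12 (interval -0.64 to 0.39, limma adjusted p 0.875). Probe b, which starts at base 46 of the same transcript, differed by -0.44 (interval -1.36 to 0.48), and by -0.11 without control 1.

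Fezf2 read -0.28, -1.12 and -0.26 in irradiated cultures, against 0.37, -1.05 and -0.39 in controls. Control 1 was the highest of all 6, number 2 was the lowest of each group, and the groups overlapped. The means were -0.55 ± 0.49 in irradiated and -0.35 ± 0.71 in control cultures (SD, n = 3 each). Irradiated minus control was -0.20 (interval -1.16 to 0.76, limma adjusted p 0.896). Without control 1 the difference was 0.17, on the other side of 0.

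Bcl11b, the factor downstream of Fezf2, was read by 2 probes. Probe a read 0.05, 1.01 and 0.95 in irradiated cultures, against 0.08, 0.60 and 0.96 in controls, and the cultures numbered 1 were the lowest of both groups. The means were 0.67 ± 0.54 in irradiated and 0.55 ± 0.44 in control cultures (SD, n = 3 each), and the difference was 0.13 (interval -0.69 to 0.94, limma adjusted p 0.926). It was -0.11 without control 1. Probe b, which starts at base 9 of another transcript, differed by -0.24 (interval -0.88 to 0.39), opposite in sign to probe a.

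Tle4 probe a had a narrower spread over the 6 arrays than the brightest probe of any other measured member. It read 2.81, 2.86 and 2.64 in irradiated cultures, against 2.73, 2.74 and 2.89 in controls, with no culture number high or low in both groups. The means were 2.77 ± 0.12 in irradiated and 2.79 ± 0.09 in control cultures (SD, n = 3 each). Irradiated minus control was -0.018 (interval -0.47 to 0.44, limma adjusted p 0.985), and -0.048 without control 1. Probe b, on a complementary DNA clone that maps to the same gene, differed by 0.44 (interval -0.16 to 1.04), and by 0.22 without control 1.

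Sox5 was read by 6 kept probes, of which the brightest, probe a, gave a log2 level of 4.45, 4.48 and 4.72 in irradiated cultures, against 5.15, 4.75 and 4.46 in controls. Its 60 bases are 100% A and G and hold 16 GGA triplets. Probe b, which is annotated to the same transcript and has 51.7% A and G, read -2.66, -2.08 and -1.93 in irradiated cultures, against -2.56, -2.11 and -1.98 in controls. The means of probe b were -2.22 ± 0.38 in irradiated and -2.22 ± 0.31 in control cultures (SD, n = 3 each). Irradiated minus control was -0.0086 (interval -0.66 to 0.64, limma adjusted p 0.995), and -0.18 without control 1. Probe a differed by -0.24 (interval -0.81 to 0.33), and by -0.054 without control 1.

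The repeat probe was set beside other probes of like composition. The array holds 23 probes with at least 90% A and G, which carry 19 gene names, and their median log2 level was 5.00 against -3.91 over all 56595 probes with a value on each array. Of these 23 probes, 22 were well above background on all 6 arrays. Of the 14 that also hold at least 6 GGA triplets, 100% lay above the 75th percentile, against 21.4% of all probes. The median of the other 22 purine-rich probes, relative to each probe's own mean, stood at -0.33, -0.21 and 0.23 in irradiated cultures and at 0.11, 0.40 and -0.26 in controls. Sox5 a stood at -0.22, -0.19 and 0.052 in irradiated cultures and at 0.49, 0.079 and -0.21 in controls, on the same side of 0 as that median on each of the 6 arrays. Sox5 b stood at -0.44, 0.14 and 0.29 in irradiated cultures and at -0.34, 0.11 and 0.24 in controls. Whether the signal of probe a comes from Sox5 RNA was not tested, and each summary below that takes the brightest probe of a gene takes probe a for Sox5.

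**Figure D2:**
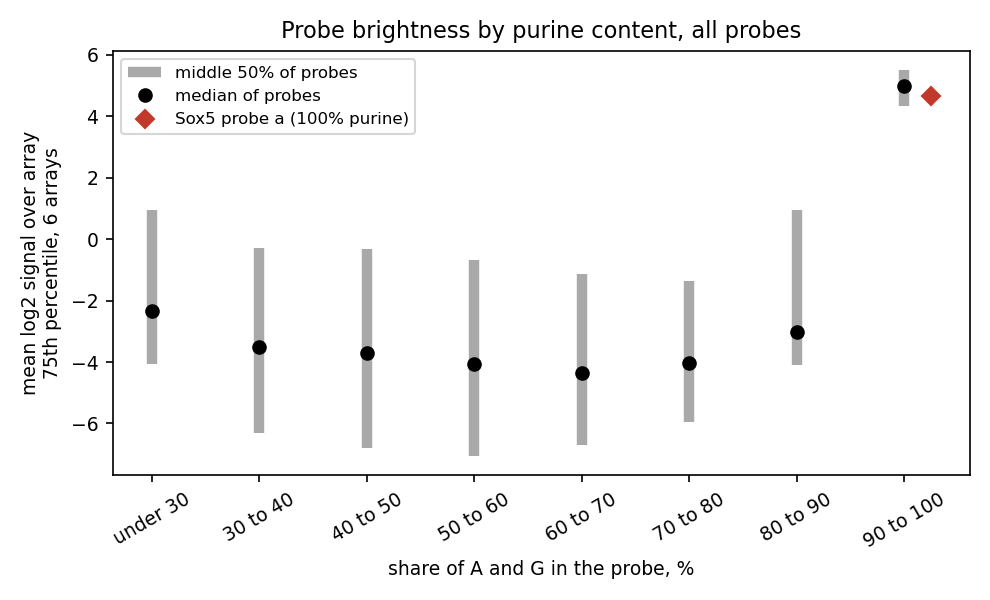
Mean log2 level over 6 arrays (vertical axis) against the share of A and G in the probe in % (horizontal axis) for all probes with a value on each array; dots are medians, bars hold the middle 50% of probes, and the diamond is Sox5 probe a. The class from 90% to 100% stands at a median of 5.00, where all other classes have medians below 0.

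The other 4 Sox5 probes were dim. Probe c, on another transcript, differed by 1.24, the largest difference of any layer probe, with an interval from -0.22 to 2.71 (limma adjusted p 0.539). It read -4.91, -4.91 and -5.21 in irradiated cultures, against -7.82, -5.12 and -5.83 in controls, and control 1 was not well above background. Without control 1 the difference was 0.46. Probe d differed by -0.16. Probe f differed by 0.69, and by 0.35 without control 1, and only 1 of its 3 control arrays was well above background, so the size of its difference is not settled. Probe e was well above background on all 3 irradiated arrays and on 0 of 3 control arrays, and the bound set by the background of the controls gave no fold above 1. Its fitted difference was 0.57, and 0.91 without control 1.

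Foxp2 was not well above background on any of the 6 arrays with either probe. The lowest signals called well above background lay between -6.68 and -6.36 on the irradiated arrays and between -6.48 and -5.49 on the control arrays. Foxp2 b stood at -8.88, -8.85 and -8.66 in irradiated cultures and at -7.82, -8.06 and -8.72 in controls. These values are below the limit and give no order between groups. Foxp2 b targets transcript variant 1, and Foxp2 a a clone from embryonic spinal ganglion.

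**Figure D3:**
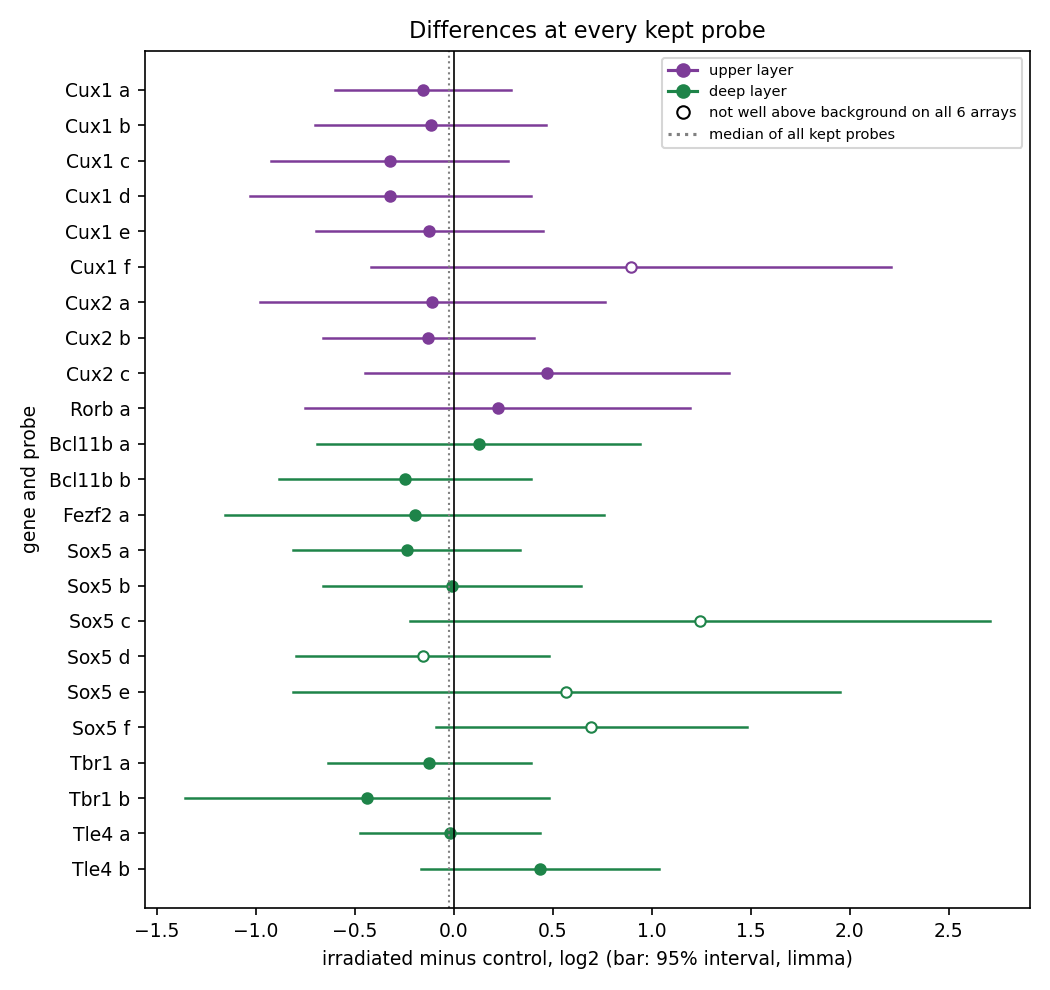
Irradiated minus control difference on the log2 scale (horizontal axis) for each of the 23 kept probes, with 95% intervals from limma; purple is upper layer, green is deep layer, and open circles are the 5 probes not well above background on all 6 arrays. Each interval contains 0, and the widest belongs to Sox5 c.

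Upper-layer and deep-layer probes were then set beside each other. The 10 upper-layer probes had a median difference of -0.12, with 7 below 0, and the 13 deep-layer probes a median of -0.018, with 8 below 0, beside a median of -0.023 over all 40552 kept probes, of which 52.6% lay below 0. Upper minus deep was -0.10 by these medians, 0.015 with the brightest probe of each gene, -0.089 with the brightest other than Sox5 a, and 0.026 with normexp background correction. With only probes well above background on all 6 arrays, upper minus deep was -2.4e-06, and both medians were -0.12. Without the filter on dim probes it was 0.0059. The per-array median of the upper-layer probes, relative to each probe's own mean, was -0.15, 0.13 and 0.014 in irradiated cultures and 0.077, 0.26 and -0.10 in controls. That of the deep-layer probes was 0.031, 0.14 and 0.19 in irradiated cultures and -0.051, 0.063 and 0.064 in controls. The groups overlapped in both, and the deep-layer value was higher in the irradiated culture for each of the 3 numbers. The deep-layer probes include Sox5 c to f, well above background on all 3 irradiated arrays and on 0 to 2 control arrays. The filter favoured values above 0 there, so nothing is read from this pattern. Averaged over arrays, the per-array medians differed between irradiated and control by -0.081 for the upper and 0.094 for the deep layers. The deep layers thus had the other sign than by the median of fitted differences. That deep-layer median was -0.12 with only probes well above background on all 6 arrays. Upper minus deep averaged -0.12 ± 0.098 in irradiated and 0.053 ± 0.19 in control cultures (SD, n = 3 each), with overlapping values. Without control 1 the median differences were -0.083 for the upper and -0.054 for the deep layers.

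The probes were also split by how many arrays called them well above background. Of the 18 kept probes well above background on all 6 arrays, 14 lay below 0 and 4 above, with differences from -0.44 to 0.47. Over all kept probes of that kind 55.4% lay below 0. Of the 5 others, 4 lay above 0. All 5 were well above background on all 3 irradiated arrays and on 0 to 2 control arrays, so the filter itself favoured values above 0 there and nothing is read from that count. With normexp background correction, 3 of the 23 layer probes lay above 0 in place of 8, and all 5 dim ones lay below 0. That correction moved the median of all kept probes to -0.19, beside -0.18 for the upper-layer and -0.20 for the deep-layer probes.

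For most layer probes the culture number, which has 3 values, accounted for more of the variation than the group, which has 2. A factor with more values takes a larger share even without an effect, so each share is read only beside that of the median kept probe. The culture number held 64.6% of the sum of squares of the median upper-layer probe and 58.4% of the median deep-layer probe, beside 40.6% for the median kept probe, and the group held 15.0%, 12.4% and 20.8%. Among single probes, the number held 98.8% for Sox5 b, 96.8% for Cux2 a, 91.5% for Bcl11b a, 85.5% for Fezf2 a, 83.0% for Tbr1 a and 81.7% for Rorb a. It held 3.28% for Tle4 a and 1.37% for Cux1 a, where the group held 55.4%. Probes of 1 gene could differ in this: the number held 14.3% for Sox5 a and 74.5% for Cux1 b. With the number as a block, intervals were narrower for Cux2 a (-0.58 to 0.36), Bcl11b a (-0.38 to 0.63) and Rorb a (-0.41 to 0.85). They were wider for Tle4 a (-0.51 to 0.47) and Cux1 a (-0.64 to 0.32), and each of these contained 0. The numbers were not high or low in the same order for each probe. Cux2 a, Bcl11b a and Sox5 b were lowest on the arrays numbered 1, and Rorb a was highest there. Fezf2 a was lowest on those numbered 2, and Tbr1 a was highest on those numbered 3, while Tbr1 b was highest on those numbered 1.

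**Figure D4:**
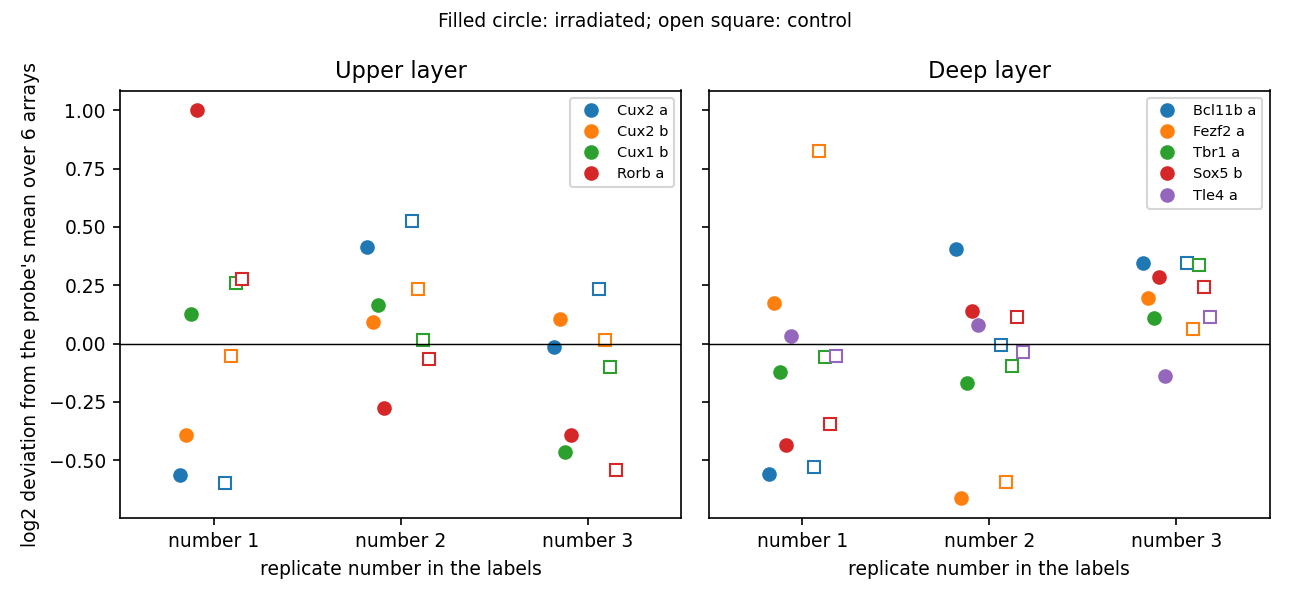
Log2 deviation from each probe's mean over 6 arrays (vertical axis) by the culture number in the labels (horizontal axis), for 4 upper-layer and 5 deep-layer probes; filled circles are irradiated and open squares control cultures. At number 1, Cux2 a, Bcl11b a and Sox5 b lie below 0 and Rorb a lies above 0 in both groups.

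Marker lists of other cell types also differed between the numbers, and their part in the layer genes' values was not tested. The log2 of the summed level of 7 astrocyte markers was 6.75, 5.83 and 5.52 in irradiated cultures 1 to 3 and 6.91, 5.82 and 5.60 in controls 1 to 3. That of 8 microglia markers was 4.31, 3.15 and 3.08 in irradiated cultures and 3.94, 3.11 and 2.76 in controls. Of the 7 cortical excitatory markers it was 5.69, 5.92 and 6.48 in irradiated cultures and 6.46, 6.17 and 6.53 in controls, and of 6 hippocampal markers 4.36, 5.20 and 5.10 in irradiated cultures and 4.28, 5.03 and 5.17 in controls. The striatal list, whose cells use Bcl11b and Foxp2, had 8 of 9 genes measured, all but Isl1, which was below the filter. It stood between 3.13 and 3.50 in irradiated cultures and between 3.28 and 3.96 in controls. None of these lists had a gene past the adjusted threshold. A summed level is led by the brightest probes of a list: Camk2a alone read 6.23 in control 1, where the excitatory sum was 6.46. Slc17a7, Neurod6, Neurod2 and Emx1 were lowest on the arrays numbered 1 in both groups. The other excitatory markers, Camk2a among them, were not. In the microglia list Itgam was lowest at number 1 in both groups, and the other genes were highest there.

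Taking the brightest probe of each member, the closest pair was Cux1 a and the repeat probe Sox5 a, at a root mean square distance of 0.16 over the 6 arrays, against a spread of 0.10 for Cux1 a and 0.25 for Sox5 a within the profile. Tle4 a lay 0.17 from Cux1 a, against a spread of 0.086 for Tle4 a. Tbr1 a lay 0.18 from Tle4 a, against a spread of 0.17 for Tbr1 a. Cux2 a and Bcl11b a, which varied more, were each the other's nearest member at 0.27, against a spread of 0.44 for Cux2 a and 0.41 for Bcl11b a within the profile. Of all other named genes, the closest to Cux2 a was Tdrd1 at 0.047, to Bcl11b a Cdh9, a cadherin, at 0.032, to Fezf2 a Ppp1r1c at 0.051, and to Tbr1 a Pcdh8, a protocadherin, at 0.032. To Rorb a it was Anxa2, an annexin, at 0.040, to Tle4 a Zfp111 at 0.029, to Cux1 a Nnt at 0.017, and to the repeat probe Sox5 a Sh3tc2 at 0.032. With 6 arrays and the kept probes of all other named genes to choose from, so close a match describes these arrays only.

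Other genes known from cortical layers gave a like picture. Of 41 on the array, 40 were measured, and 0 passed the adjusted threshold in either direction. Their differences had a median of -0.062, with 25 below 0 and 15 above 0. Over all kept probes, which count several probes of a gene, 52.6% lay below 0. That share is not given with 1 probe per gene, so no lean is read from the count. An unadjusted p under 0.05 in limma was found for 1 of them and for 8.74% of all kept probes. With 1 probe per gene over the whole array, as for these genes, the median difference was -0.10, further below 0 than theirs. Of those 26157 probes, 2159 had an unadjusted p under 0.05 in limma. Etv1, a factor of layer 5, differed by 0.052 (interval -0.66 to 0.76). Reln, the secreted guide made by Cajal-Retzius cells, differed by -0.096 (interval -0.56 to 0.37), and by -0.064 without control 1. The upper-layer and layer 4 genes with the smallest unadjusted p were Scnn1a, a sodium channel subunit, at -0.93 (interval -1.82 to -0.036, limma adjusted p 0.539), the semaphorin receptor gene Plxnd1 at -0.17 (0.038 without control 1), and Inhba, an activin subunit, at 0.23 (-0.12 without control 1). Scnn1a read -0.74, -0.66 and -0.17 in irradiated cultures, against 1.21, 0.17 and -0.17 in controls, and control 1 was the highest. Without control 1 it differed by -0.52 (unadjusted p 0.082 in limma), and its other probe differed by -0.16.

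In the deep and subplate lists the smallest unadjusted p belonged to Nxph4, a neurexophilin, at -0.69 (interval -1.44 to 0.064; -0.43 without control 1), to Crym, the thyroid hormone binding protein crystallin mu, at -0.32, and to Cplx3, a complexin, at 0.37 (0.0017 without control 1). Trp73, the p53 relative of Cajal-Retzius cells, was the 1 gene of the 40 whose groups lay apart, where 14.1% of all kept probes did, at -2.73, -2.92 and -2.63 in irradiated cultures, against -1.57, -2.32 and -2.62 in controls. It is named after its values were seen. It differed by -0.59 (interval -1.29 to 0.12, limma adjusted p 0.539), by -0.29 without control 1, and the differences of its 3 probes ranged from -0.59 to -0.17.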

How the data were processed

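Spot intensity was taken from scanner files deposited by the authors, made with Agilent Feature Extraction (version 10.7.1.1 in the submitters' processing notes). Their processed signal has background subtracted and a spatial trend removed, per the file headers. The multiplicative detrending fit stood at 0 for control 1, against 0.013 to 0.038 elsewhere. A second deposited table by the authors gives log2 values, all columns of which share 1 set of ranked values, as quantile normalisation leaves them; no source used here names its tool. Control and outlier spots were left out, spots of a probe were averaged on the log2 scale, and each array's 75th percentile was subtracted. Of 56605 probes, 10 lacked a value on some array, and 40552 were kept as well above background on at least 3 of 6 arrays. Each was fitted with limma 3.58.1 in R 4.3.3, irradiated minus control over 6 arrays, with Benjamini-Hochberg adjustment over all kept probes and a threshold of 0.05. The fit was also run on simulated data with planted differences, and how many of these it recovered is not reported here. All probes of each member were tested; other genes stand by their brightest kept probe. The number of arrays, 3 in each group, limits the precision. Members, lists and the rule for named genes (the members, the 3 smallest p in the upper and in the deep lists, Etv1, Reln and the closest profiles) were chosen with earlier results of these data known; 1 gene that the rule names is not reported here. Alternatives were quantile normalisation, normexp correction with offset 50, the deposited table, other filters, the replicate block, arrays left out and 1 probe per gene.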

Additional observations from a re-analysis of the deposited data

How the results depend on the processing

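The count of layer probes past the adjusted threshold was 0 in limma as reported and under each alternative run, and so was that of other layer genes. Over all kept probes the count became 4 with quantile normalisation and 4 with the deposited log2 table; the cause was not tested. The median difference of the deep-layer probes, -0.018 as reported, was -0.20 with normexp background correction, -0.12 without the filter on dim probes, -0.12 with probes well above background on all arrays only and -0.12 with 1 probe per gene, where other probes enter the median. The median of all probes fitted, -0.023 as reported, moved as well, to -0.19, -0.12, -0.045 and -0.10 in the same order of settings. With 1 array left out the deep-layer median ranged from -0.15 to 0.065, and the upper-layer median from -0.22 to -0.026. Signs turned for Tle4 a, to 0.11 with quantile normalisation and with the deposited log2 table and to 0.028 with normexp, and for Sox5 a, to 0.0026 with quantile normalisation and 0.0023 with the deposited table. With normexp, Rorb a was -0.13, Sox5 c -0.26, Sox5 e -0.44, Sox5 f -0.47, Cux1 f -0.24 and Cux2 c -0.18, all above 0 as reported. Without both arrays numbered 1, Fezf2 a was 0.031, Rorb a -0.030, Sox5 d 0.023 and Sox5 b 0.034. With 1 array left out, 13 of the 23 probes crossed 0 at least once, with these ranges: Bcl11b a -0.11 to 0.44, Bcl11b b -0.40 to 0.014, Cux2 a -0.43 to 0.15, Cux2 b -0.21 to 0.035, Fezf2 a -0.54 to 0.17, Tle4 a -0.063 to 0.047, Rorb a -0.22 to 0.47, Sox5 b -0.18 to 0.21, Sox5 d -0.38 to 0.065, Sox5 e -0.19 to 0.99, Tbr1 a -0.21 to 0.015, Cux1 b -0.23 to 0.087 and Cux1 e -0.30 to 0.021. Deviations from the group means of same-numbered cultures correlated across kept probes at 0.46, 0.33 and 0.086 for numbers 1 to 3, and across genes with 1 probe each at 0.53, 0.42 and 0.22, so the probes do not meet the limit of 0.1 for pairing in each number. With the replicate block, 0 layer probes and 0 of all kept probes passed in limma (0 and 3502 at an unadjusted p under 0.05), and the difference of each layer probe was the same, since the design is balanced; with the block and quantile normalisation, chosen after seeing the data, Tle4 a was 0.11 and Sox5 a 0.0026. With the block and without both arrays numbered 1, also chosen after seeing the data, the signs that turned were those without the block. The other alternatives chosen after seeing the data left out Sox5 a (deep-layer median -0.013), left out the Cux1 probes of variant 2 (upper-layer median -0.11), or took 1 probe per gene without Sox5 a. With the last, the deep-layer median was -0.018 in place of -0.12, so its shift with 1 probe per gene rested on Sox5 a. The median over all genes with 1 probe each was -0.10 with and without Sox5 a. Signal near background limits Foxp2, Cux1 f, Cux1 g and Sox5 c to f.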
